A study of Rattus norvegicus with 19 samples.

Results

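Enalapril was added to paricalcitol in 4 rats, and their left ventricles were set against those of 4 rats given paricalcitol without enalapril. These 8 arrays were chosen by their titles, out of 19 arrays in all, and the comparison covers every gene measured. The combination group received enalapril at 90 ug a day from an implanted osmotic pump and paricalcitol at 200 ng per intraperitoneal injection, 3 injections a week, for 4 weeks. The paricalcitol group received the same injections with no pump listed in the design, so that enalapril and pump implantation cannot be told apart. Rats in both groups were male Dahl salt-sensitive (Harlan SS/Hsd) animals, fed 6% NaCl from 6 weeks of age and taken at 15 weeks, after 5 weeks of the diet and the 4 weeks of treatment during which the diet went on. Of the other arrays, 3 came from rats of that age given enalapril by pump with injections of the paricalcitol vehicle, 4 from rats of that age given vehicle injections and 4 from baseline rats taken at 11 weeks, all on the same diet. No rat on a low salt diet was analysed here. The design text describes the enalapril dose as the highest that left blood pressure without a significant decrease. Pressures of these rats were not used here, and whether pressure differed between the groups was not tested.

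Enalapril blocks angiotensin-converting enzyme, which makes angiotensin II and breaks down bradykinin. Paricalcitol is an analogue of the active form of vitamin D and acts through the vitamin D receptor, a nuclear receptor that is known to repress renin. In the pressure-loaded heart, angiotensin II acts on vascular smooth muscle, fibroblasts and cardiomyocytes, and its known effects include contraction, matrix production and growth. Cardiomyocytes draw most of their ATP from mitochondria, whose own ribosomes translate the few proteins of the respiratory chain that mitochondrial DNA encodes. The proteins of those ribosomes are themselves encoded in the nucleus and imported.

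The values are array intensities, equalised between arrays by quantiles and given as log2(value + 16), so that a difference of 1 is a 2-fold ratio for a bright gene and understates the ratio of a dim one, and 4.00 is the floor. Each gene had 1 value per array, and the median gene lay at 7.07. Each rat gave 1 array, with no note of shared litters, so the p-values measure the spread between these rats. The labels name no batch or cohort. In bulk tissue, fewer cells of a type and less RNA per cell cannot be told apart.

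In both groups the arrays with replicate numbers 2 and 3 stood apart from those numbered 1 and 4. The first principal component of the 8 arrays held 46.2% of their variance and separated these pairs in both groups. Red cell scores, the mean of 11 red cell genes of haemoglobin, haem synthesis, membrane and metabolism after centring each gene, were 0.36, -0.71, -0.78 and 0.50 in the combination hearts, against 0.29, -0.47, -0.73 and 0.43 in the paricalcitol hearts. The red cell genes were thus low on numbers 2 and 3 and high on numbers 1 and 4, while the groups overlapped. Fatty acid oxidation genes ran the other way in both groups. Their scores were -0.24, 0.40, 0.24 and -0.08 in the combination hearts, against -0.30, 0.22, 0.27 and -0.04 in the paricalcitol hearts. Cardiac markers placed the tissue as heart. The summed level of 16 sarcomere genes was 190982 to 206866 intensity units in the combination hearts and 193853 to 203742 in the paricalcitol hearts. Of 9 atrial markers, only Sln was at the floor on all 8 arrays. The summed level of the 9 was 20356 to 25122 intensity units in the combination hearts and 19992 to 25847 in the paricalcitol hearts. Most of this sum came from Nppa, also counted among the fetal and hypertrophy-associated genes, so it does not tell ventricle from atrium. The plot of list scores by replicate number shows these arrays side by side.

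**Figure D1:**
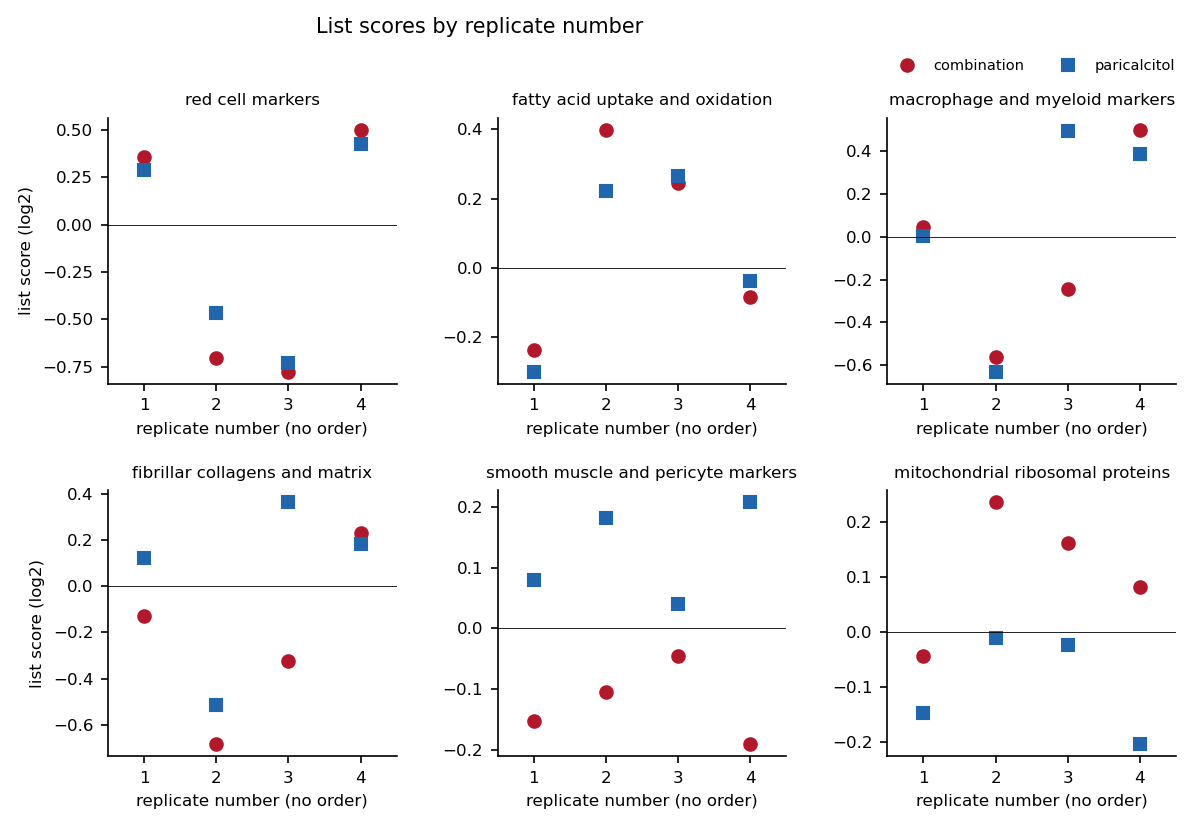
List scores (mean log2 value of a list's genes, each centred over the 19 arrays) of the 4 combination arrays (circles) and the 4 paricalcitol arrays (squares) by replicate number, for 6 lists. Red cell and fatty acid oxidation scores separate numbers 1 and 4 from 2 and 3 in both groups, whereas the smooth muscle scores of the groups do not overlap.

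No gene passed the test between combination and paricalcitol hearts. The test was limma's, fitted over all 19 arrays with Benjamini-Hochberg adjustment, and 0 of 14217 genes (0%) had an adjusted p under 0.05, with a smallest value of 0.17. At an unadjusted p under 0.05, 731 genes (5.14%) were higher and 556 (3.91%) were lower in the combination hearts. All 4 combination arrays lay above all 4 paricalcitol arrays for 291 genes (2.05%), and below them for 197 genes (1.39%). Arrays equalised by their medians alone put the split at an unadjusted p at 1093 higher and 296 lower, again with 0 genes past adjustment. A fit on the 8 arrays alone put it at 503 higher and 376 lower, also with 0 past adjustment. Every difference below is therefore a measured difference that did not pass the test, and counts at an unadjusted p are read against these shares of all genes.

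Of the 291 higher genes without overlap, the 12 with the smallest p above the median level are named here. Opa1, the GTPase that fuses inner mitochondrial membranes, had values of 9.67, 9.63, 9.50 and 9.46 in the combination hearts, against 9.06, 9.21, 9.36 and 9.16 in the paricalcitol hearts. The groups did not overlap, and the difference was 0.36 (SE 0.08, adjusted p = 0.17). Mtres1, known in human cells as a factor that sustains mitochondrial transcription, stood at 9.11, 8.98, 8.91 and 9.34 in the combination hearts, against 8.63, 8.59, 8.50 and 8.35 in the paricalcitol hearts. Its difference was 0.56 (SE 0.12, adjusted p = 0.17), a 1.48-fold ratio. Vps26b, a subunit of the retromer that retrieves cargo from endosomes, averaged 9.25 ± 0.06 in the combination hearts and 8.87 ± 0.08 in the paricalcitol hearts (SD, n = 4 each), again without overlap, although 1 of its 3 probe sets pointed the other way. The widest gap of the 12 higher genes named by the ordering on p was that of Cryl1, an enzyme of glucuronate metabolism, at 7.34, 7.83, 7.98 and 7.76 in the combination hearts, against 6.67, 6.98, 7.28 and 6.51 in the paricalcitol hearts. Its difference was 0.87 (SE 0.17, adjusted p = 0.17). The remaining higher genes of that ordering were Yaf2, a Polycomb partner protein, with a difference of 0.54, Syngr1, a vesicle membrane protein, with 0.62, Prpsap2, a regulator of nucleotide precursor synthesis, with 0.27, the splicing factor Cdc5l with 0.29, and C17h7orf25 with 0.39. Atp6v1d, Atp6v0e2 and Mrpl49 complete the 12 and are described with their groups.

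On the lower side, the receptor of the complement fragment C5a showed the widest gap of the 12 genes ordered by p. C5ar1 stood at 7.87, 7.69, 7.77 and 8.11 in the combination hearts, against 8.63, 8.36, 8.56 and 8.90 in the paricalcitol hearts. No value overlapped, each combination heart was lower than the paricalcitol heart of the same number, and the difference was -0.76 (SE 0.14, adjusted p = 0.17), a ratio of 0.592. Il6st, which encodes gp130, the signalling subunit shared by receptors of the interleukin-6 family, had values of 10.43, 10.46, 10.51 and 10.39 in the combination hearts, against 10.76, 10.78, 10.89 and 10.79 in the paricalcitol hearts. The 4 combination hearts lay close together below the 4 paricalcitol hearts, with a difference of -0.36 (SE 0.08, adjusted p = 0.17). Actn1, the alpha-actinin of non-sarcomeric actin bundles, averaged 7.88 ± 0.31 in the combination hearts and 8.52 ± 0.29 in the paricalcitol hearts (SD, n = 4 each), and its difference was -0.65 (SE 0.16, adjusted p = 0.188). Cpsf7, a subunit of the complex that sets the 3′ ends of messenger RNAs, had the smallest unadjusted p of these genes, with a difference of -0.31 (SE 0.05, adjusted p = 0.17) and values of 8.33, 8.22, 8.28 and 8.28 against 8.56, 8.58, 8.59 and 8.62 in combination against paricalcitol hearts. Of the 4 probe sets of Cpsf7 1 was higher, at 0.26. The other lower genes of the ordering included Tmbim1, a membrane protein of the BAX inhibitor family, at -0.58, Epb41l2, which ties membranes to the cytoskeleton, at -0.45, the actin adaptor Cd2ap at -0.27, and the phosphoinositide phosphatase Synj1 at -0.30. Kdm5b, a histone demethylase, differed by -0.33, Gtf3c6, a subunit of an RNA polymerase III factor, by -0.31, Cct7, a chaperonin subunit, by -0.15, and C3h11orf96 by -0.44. The sign of Kdm5b turned when its probe sets were averaged. The dimmer probe set of C3h11orf96 lay at 0.03.

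**Figure D2:**
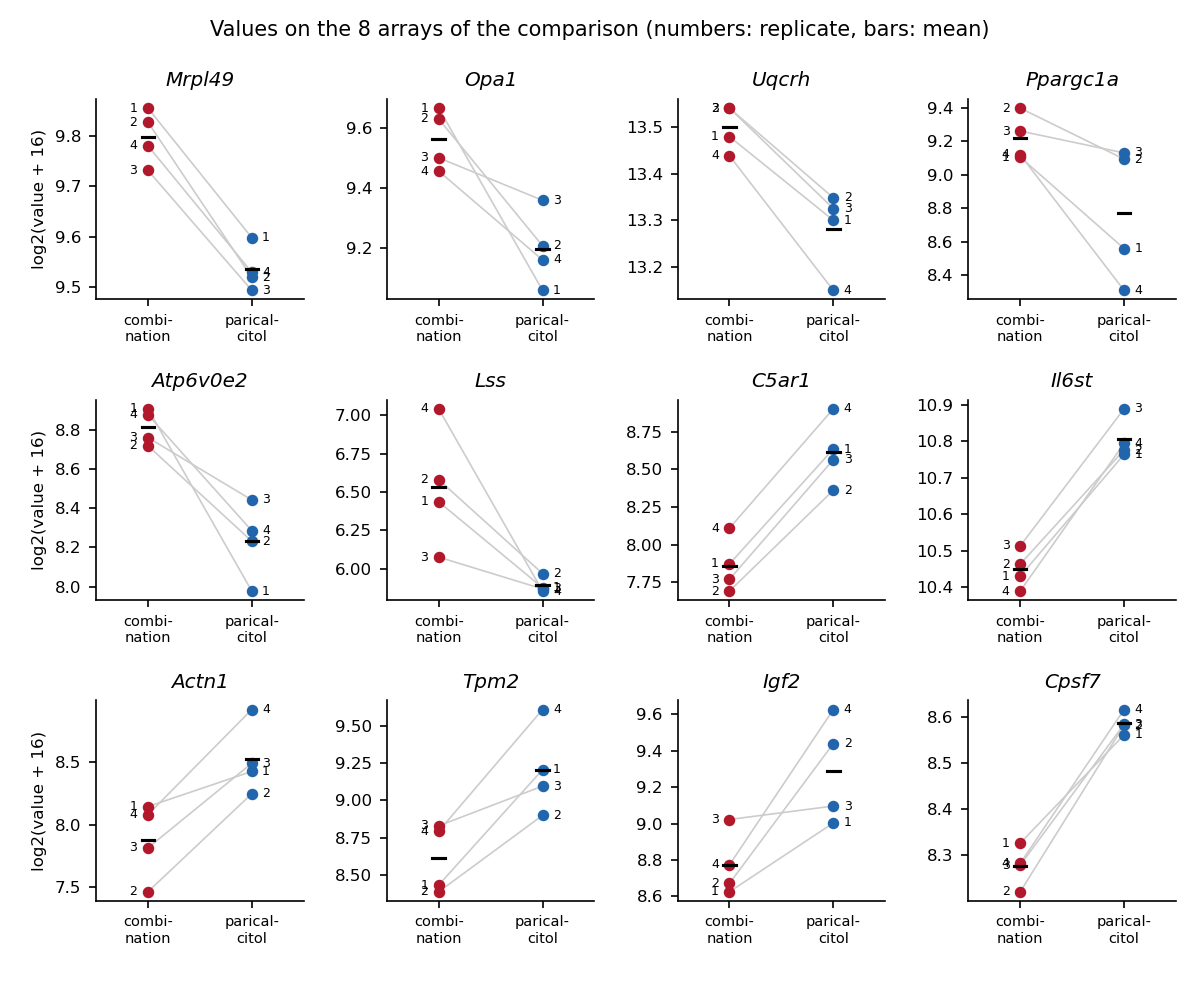
Values of 12 genes, as log2(value + 16), on the 4 combination arrays (left in each panel) and the 4 paricalcitol arrays (right). Numbers give the replicate, grey lines join the same number and black bars mark group means. Ppargc1a and Igf2 overlap between the groups, and the other 10 genes do not.

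Mitochondrial ribosomal proteins formed the gene group with the highest median difference of the 49 lists. Of 53 measured members, 51 were higher and 2 lower in the combination hearts, against 48.3% of all genes higher and 47.3% lower. Of those members, 24 were higher at an unadjusted p under 0.05 and none was lower, where 5.14% and 3.91% of all genes were. None passed adjustment. In 11 members every combination array exceeded every paricalcitol array, against 2.05% of all genes. The median difference was 0.20, against 0.00 over all genes.

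Mrpl49, a protein of the large subunit, had values of 9.86, 9.83, 9.73 and 9.78 in the combination hearts, against 9.60, 9.52, 9.49 and 9.53 in the paricalcitol hearts. The groups did not overlap, and the difference was 0.26 (SE 0.06, adjusted p = 0.17). Mrps22, of the small subunit, stood at 9.17, 9.29, 9.23 and 9.23 in the combination hearts, against 8.90, 9.01, 9.07 and 8.80 in the paricalcitol hearts. It did not overlap either, with a difference of 0.29 (SE 0.06, adjusted p = 0.17), while its dimmer probe set lay the other way at -0.21. Mrps30, catalogued with the small subunit, had values of 9.98, 10.14, 9.96 and 9.91 in the combination hearts, against 9.76, 9.62, 9.66 and 9.75 in the paricalcitol hearts, and Mrpl40 of the large subunit averaged 10.16 ± 0.05 in the combination hearts and 9.92 ± 0.09 in the paricalcitol hearts (SD, n = 4 each). Their differences were 0.30 and 0.25. Mrps12, which lies at the decoding centre of the small subunit, stood at 9.55, 9.56, 9.80 and 9.73 in the combination hearts, against 9.35, 9.13, 9.34 and 9.35 in the paricalcitol hearts. This was a difference of 0.37 (SE 0.09, adjusted p = 0.202). Mrpl12, of the stalk of the large subunit, differed by 0.34 (SE 0.10, adjusted p = 0.27). The other members without overlap were Mrpl1, Mrpl19, Mrpl20, Mrpl35 and Mrpl44, with differences between 0.22 and 0.36. The higher members thus included genes of both subunits. Mrpl14 and Mrpl23, the 2 lower members, each differed by -0.01.

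Averaged over the 53 genes, the score per array was -0.04, 0.24, 0.16 and 0.08 in the combination hearts, against -0.15, -0.01, -0.02 and -0.20 in the paricalcitol hearts. Replicate 1 of the combination group lay among the paricalcitol arrays, so the groups overlapped, although each combination array exceeded the paricalcitol array of the same number. Mean scores were 0.11, -0.10, 0.05, -0.02 and -0.03 in the combination, paricalcitol, enalapril, vehicle and baseline groups. The highest group mean was that of the combination and the lowest that of paricalcitol. With only the arrays numbered 1 and 4 of both groups the median difference was 0.20, and with only those numbered 2 and 3 it was 0.22. It was 0.21 with the red cell score as a covariate. With 1 array left out at a time, the number of members higher at an unadjusted p under 0.05 ran from 16, without replicate 4 of the paricalcitol group, to 32, without replicate 1 of the combination group, and over all 24 settings from 16 to 35.

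**Figure D3:**
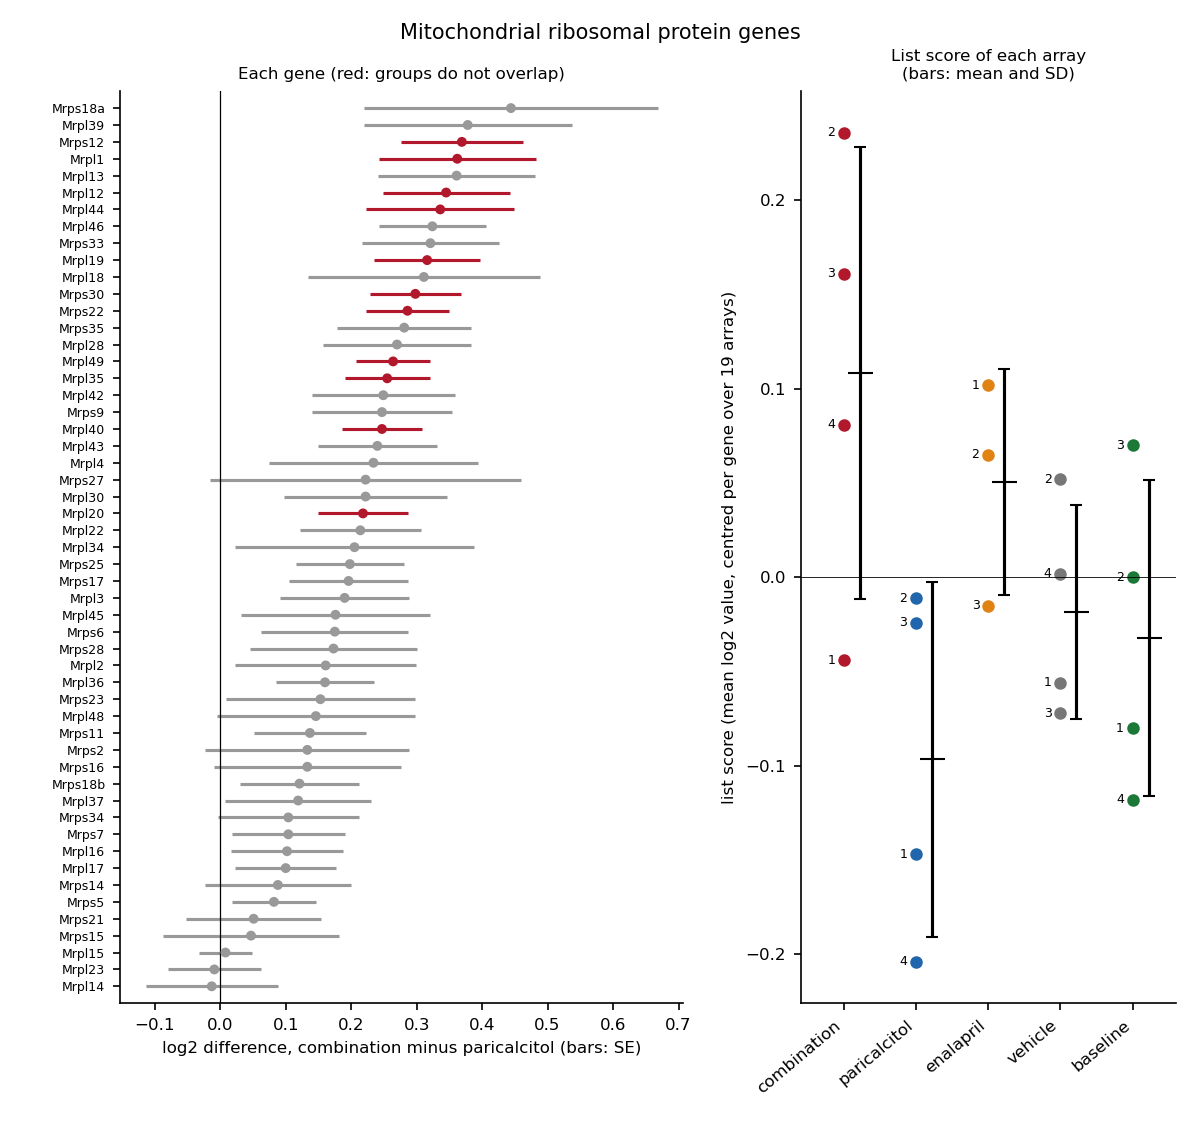
Left, log2 difference of each of the 53 mitochondrial ribosomal protein genes, combination minus paricalcitol, with its SE. The 11 genes in red did not overlap between groups and 2 genes lay below 0. Right, the list score of each of the 19 arrays by group, with replicate numbers and mean and SD. Combination scores ran from -0.04 to 0.24 and paricalcitol scores from -0.20 to -0.01.

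Cytosolic ribosomal proteins, which translate the messages of nuclear genes, are the counterpart in the cytoplasm. Of 28 measured, 7 were higher and 21 lower, none at an unadjusted p under 0.05, with a median of -0.04. Centred on array medians instead, their median was 0.01, on the other side of 0, while that of all genes was 0.035.

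Promoters of the mitochondrial ribosomal genes are shown because 51 of 53 members lay on 1 side of 0. RefSeq windows on build GRCr8, from 250 bases before to 50 after the start site, were found for 42 of the 53 genes. Both strands were searched for AAGATGGCG, a YY1-type motif, GCGCATGC, most of the NRF1 palindrome, and CCGGAAGT, an ETS motif that NRF2 (GABP) recognises, all chosen after the values were seen. Each window printed held 1 of the 3 motifs and neither of the others. The YY1 letters were in 7 windows (16.7%), against 1.73% of all 33469 promoters and 3.14% of those of the compared genes. The NRF1 letters were in 4 windows (9.52%), against 2.47% and 4.3%, and the ETS letters in 3 windows (7.14%), against 3.81% and 6.84%. Complex I promoters, whose genes had a median difference of 0.05, held the YY1 letters in 7 of 32 windows (21.9%). A match is a description of these letters only. The window of Mrps30 is chr2:52195855-52196154 on the minus strand, that of Mrpl46 is chr1:142116981-142117280 on the minus strand and that of Mrpl44 is chr9:88554800-88555099 on the plus strand. Capitals mark the YY1 letters in the windows of Mrps30 and Mrpl46, and the NRF1 letters in that of Mrpl44, where the reverse strand match overlaps them.
Mrps30: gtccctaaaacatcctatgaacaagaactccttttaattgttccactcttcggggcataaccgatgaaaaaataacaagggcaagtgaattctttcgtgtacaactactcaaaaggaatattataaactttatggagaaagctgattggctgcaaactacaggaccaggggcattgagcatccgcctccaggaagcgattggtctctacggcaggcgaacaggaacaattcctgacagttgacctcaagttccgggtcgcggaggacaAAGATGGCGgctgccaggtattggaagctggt
Mrpl46: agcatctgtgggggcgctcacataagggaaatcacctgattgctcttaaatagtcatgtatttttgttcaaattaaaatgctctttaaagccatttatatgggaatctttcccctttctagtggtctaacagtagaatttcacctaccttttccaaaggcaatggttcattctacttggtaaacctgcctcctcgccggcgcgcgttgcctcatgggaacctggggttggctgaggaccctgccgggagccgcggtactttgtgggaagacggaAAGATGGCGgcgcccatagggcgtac
Mrpl44: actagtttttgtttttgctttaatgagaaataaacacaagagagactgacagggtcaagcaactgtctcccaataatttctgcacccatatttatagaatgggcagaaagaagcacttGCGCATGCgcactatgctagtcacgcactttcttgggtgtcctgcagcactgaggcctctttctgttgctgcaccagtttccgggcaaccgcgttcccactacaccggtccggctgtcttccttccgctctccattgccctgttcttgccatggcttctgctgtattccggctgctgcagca
The Mrps30 motif begins 18 bases after the start site and the Mrpl46 motif 24 bases after it, while the Mrpl44 motif begins 132 bases before. Mrpl46 had values of 8.46, 8.83, 8.71 and 8.66 in the combination hearts, against 8.25, 8.47, 8.44 and 8.21 in the paricalcitol hearts, and a difference of 0.32 (SE 0.08, adjusted p = 0.202). Mrpl44 averaged 9.04 ± 0.11 in the combination hearts and 8.70 ± 0.12 in the paricalcitol hearts (SD, n = 4 each), and its difference was 0.34 (SE 0.11, adjusted p = 0.36).

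Other genes of mitochondrial protein synthesis and import, picked by name after the values above were known, are given as a description. The ligases that charge mitochondrial transfer RNAs numbered 13, of which 11 were higher and 6 of those at an unadjusted p under 0.05. Over all genes, 48.3% were higher, 5.14% were higher at that level and 2.05% were higher without overlap. Hars2, which charges histidine, had values of 8.20, 7.92, 7.96 and 7.92 in the combination hearts, against 7.48, 7.78, 7.72 and 7.54 in the paricalcitol hearts. These did not overlap, and the difference was 0.37 (SE 0.09, adjusted p = 0.17). Fars2 and Yars2, which charge phenylalanine and tyrosine, differed by 0.38 and 0.43 with overlap. Ears2, for glutamate, lay the other way at -0.61 (SE 0.32, adjusted p = 0.619). Of 23 translocase genes of the outer and inner membranes, 19 were higher, with a median of 0.15. At an unadjusted p under 0.05, 4 were higher, against 5.14% of all genes. Tomm5, of the outer membrane pore complex, stood at 10.41, 10.46, 10.66 and 10.61 in the combination hearts, against 10.17, 10.37, 10.20 and 10.16 in the paricalcitol hearts, without overlap.

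Other lists of energy metabolism had smaller medians, between 0.01 for ATP synthase and 0.11 for glycolysis. Over the settings tried, the lowest median was -0.06 for the fatty acid list, -0.03 for complex I, -0.01 for complexes III and IV and -0.06 for ATP synthase, below 0, and 0.05 for the PGC-1 list and 0.07 for glycolysis. In the PGC-1 and AMP-activated kinase list, regulators of mitochondrial content and fuel use, 14 of 17 members were higher. At an unadjusted p under 0.05, 3 of them were, against 5.14% of all genes. Ppargc1a, which encodes the coactivator PGC-1alpha, had values of 9.11, 9.40, 9.26 and 9.12 in the combination hearts, against 8.56, 9.09, 9.13 and 8.31 in the paricalcitol hearts. Replicate 3 of the paricalcitol group lay above the lowest combination heart, and the difference was 0.45 (SE 0.15, adjusted p = 0.378). Prkag1, the gamma subunit of the kinase, did not overlap, at 9.67, 9.77, 9.72 and 9.72 in the combination hearts, against 9.54, 9.51, 9.50 and 9.48 in the paricalcitol hearts. Sirt3, a mitochondrial deacetylase, differed by 0.35 (SE 0.09, adjusted p = 0.234). Nrf1 and Ppargc1b, further regulators of the same list, lay the other way at -0.16 and -0.11.

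Among the respiratory chain genes, Uqcrh, the hinge protein of complex III, had values of 13.48, 13.54, 13.54 and 13.44 in the combination hearts, against 13.30, 13.35, 13.32 and 13.15 in the paricalcitol hearts. All combination hearts were above all paricalcitol hearts, and the difference was 0.22 (SE 0.05, adjusted p = 0.17). Sco1, a copper chaperone for complex IV, averaged 8.62 ± 0.09 in the combination hearts and 8.34 ± 0.15 in the paricalcitol hearts (SD, n = 4 each) without overlap. In complexes III and IV together, 17 of 26 genes were higher, with a median of 0.02. At an unadjusted p under 0.05, 2 were higher (7.69%), against 5.14% of all genes. In complex I, 23 of 34 were higher and 3 at an unadjusted p under 0.05 (8.82%), namely Ndufab1 at 0.12, Ndufc2 at 0.22 and Ndufb10 at 0.26. The complex I median of 0.05 came to 0.01 with the arrays numbered 1 and 4 alone. ATP synthase was divided, with Atp5f1d, its delta subunit, at 0.20 (SE 0.05, adjusted p = 0.192) and Atp5f1a, its alpha subunit, at -0.10 (SE 0.04, adjusted p = 0.458), neither with overlap. In the tricarboxylic acid cycle 16 of 21 genes were higher. Dlst, of the oxoglutarate dehydrogenase complex, differed by 0.32 (SE 0.10, adjusted p = 0.351), and Suclg2, of succinyl-CoA synthetase, lay the other way at -0.16 (SE 0.07, adjusted p = 0.501). Of the fatty acid genes 20 of 31 were higher, with 2 at an unadjusted p under 0.05 (6.45%), the carnitine carrier Slc25a20 at 0.28 and the fatty acid carrier Fabp3 at 0.20. Of the glycolytic genes 17 of 23 were higher, 3 at an unadjusted p under 0.05 (13%), against 5.14% of all genes. These 3 were Tpi1 at 0.19, Pgam2 at 0.43 and Eno3 at 0.40.

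**Figure D4:**
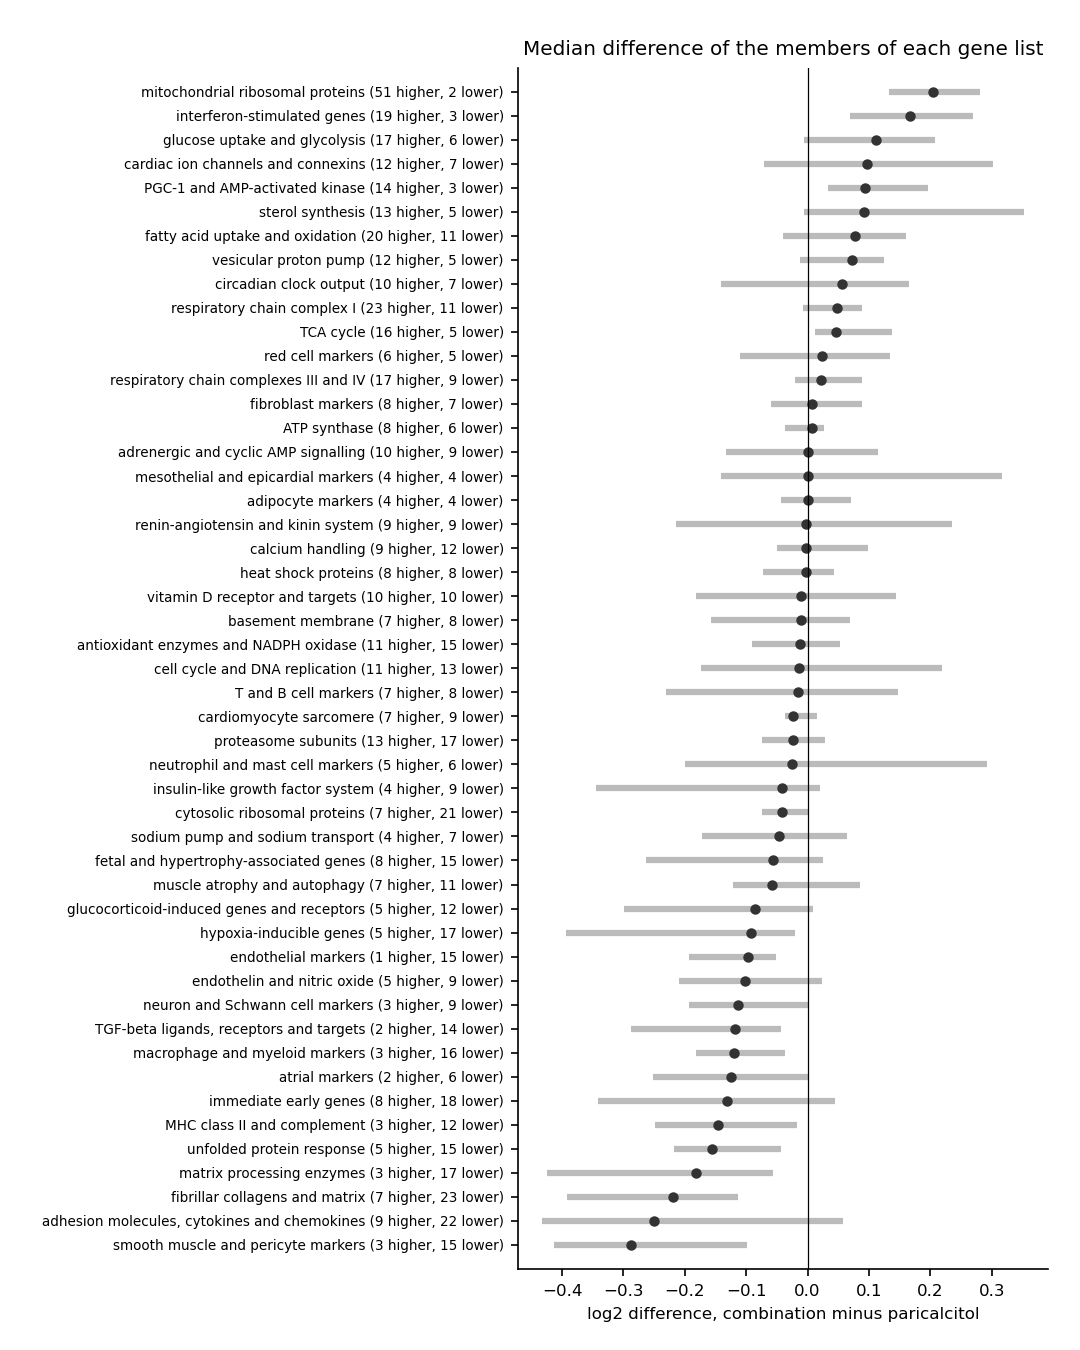
Median log2 difference, combination minus paricalcitol, of the measured members of each of the 49 gene lists (points), with the range of the middle 50% of members (grey bars) and the counts of members higher and lower. Mitochondrial ribosomal proteins lie at the top with a median of 0.20, and smooth muscle and pericyte markers at the bottom with -0.29.

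Smooth muscle and pericyte markers had the lowest median of the 49 lists, at -0.29. Of 18 measured, 15 were lower and 6 of those at an unadjusted p under 0.05, against 3.91% of all genes, and none passed adjustment. Tpm2, the beta-tropomyosin of smooth and slow muscle, stood at 8.43, 8.39, 8.83 and 8.79 in the combination hearts, against 9.21, 8.90, 9.10 and 9.61 in the paricalcitol hearts. The groups did not overlap, and the difference was -0.59 (SE 0.17, adjusted p = 0.286). Acta2, smooth muscle alpha-actin, averaged 9.78 ± 0.21 in the combination hearts and 10.35 ± 0.17 in the paricalcitol hearts (SD, n = 4 each), with a difference of -0.58 (SE 0.21, adjusted p = 0.416). Notch3, a receptor of vascular mural cells, had values of 6.89, 7.44, 7.72 and 7.49 in the combination hearts, against 7.76, 7.99, 7.85 and 7.46 in the paricalcitol hearts, with replicate 4 of the paricalcitol group inside the combination range. Smtn, smoothelin, lay the other way at 0.37 (SE 0.22, adjusted p = 0.655), and so did Abcc9, the regulatory subunit of the vascular potassium channel, at 0.21 (SE 0.13, adjusted p = 0.656). Kcnj8, the pore subunit of that channel, differed by -0.37 (SE 0.10, adjusted p = 0.202).

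The score of these 18 genes was -0.15, -0.10, -0.04 and -0.19 in the combination hearts, against 0.08, 0.18, 0.04 and 0.21 in the paricalcitol hearts. Every combination heart was below every paricalcitol heart. Enalapril hearts averaged 0.02 ± 0.17 (SD, n = 3) and vehicle hearts -0.12 ± 0.05 (SD, n = 4), while baseline hearts averaged 0.10 ± 0.11 (SD, n = 4). The combination mean lay at the level of vehicle, and the paricalcitol mean above the means of vehicle, enalapril and baseline hearts. Endothelial markers, of which 15 of 16 were lower, had a median of -0.10, and fibroblast markers one of 0.01. Summed over the smooth muscle list, levels were 20175 to 26095 intensity units in the combination hearts and 22491 to 29055 in the paricalcitol hearts, and no defining marker was at the floor on all 8 arrays. Whether the share of vessel wall in the samples took part was not tested. The median of the list was -0.31 on the arrays numbered 1 and 4 and -0.15 on those numbered 2 and 3. The CArG box, the element bound by serum response factor, was in none of the 11 RefSeq windows found for these 18 genes. It was in 1.64% of all promoters. Only exact matches inside the windows were sought. At so low a share so few windows would rarely hold one, so this cannot tell whether these genes have the element.

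Matrix genes were mostly lower, with wide spread. Of 30 fibrillar collagen and matrix genes 23 were lower, against 47.3% of all genes, with a median of -0.22. At an unadjusted p under 0.05, 2 were lower (6.67%), against 3.91% of all genes. Fn1, fibronectin, had values of 9.75, 8.62, 9.26 and 10.12 in the combination hearts, against 10.51, 9.65, 10.98 and 10.46 in the paricalcitol hearts, and Sparc, a collagen-binding matricellular protein, 11.42, 11.67, 11.79 and 11.63 in the combination hearts, against 11.95, 11.78, 12.03 and 11.70 in the paricalcitol hearts. The groups overlapped in both, and the differences were -0.96 and -0.24. The main fibrillar collagens showed no common direction. Col1a1 differed by -0.37 (SE 0.37, adjusted p = 0.825) and Col3a1 by 0.06 (SE 0.27, adjusted p = 1), each with its highest value in replicate 3 of the paricalcitol group. Postn, periostin, spanned 11.32, 7.34, 9.88 and 11.85 in the combination hearts, against 11.91, 8.78, 11.36 and 11.59 in the paricalcitol hearts, a spread within each group that exceeded the difference between them.

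Of 20 enzymes and chaperones that process matrix, 17 were lower and 3 at an unadjusted p under 0.05, against 47.3% and 3.91% of all genes. Mmp14, a membrane-bound collagenase, stood at 8.56, 8.44, 8.41 and 8.61 in the combination hearts, against 8.87, 8.60, 9.42 and 9.23 in the paricalcitol hearts. P4ha2, a collagen prolyl hydroxylase, differed by -0.42 and Plod2, a lysyl hydroxylase, by -0.57. In the TGF-beta list 14 of 16 members were lower. Tgfbr1, the type I receptor, did not overlap, at 8.52, 8.46, 8.41 and 8.54 in the combination hearts, against 8.68, 8.54, 8.75 and 8.56 in the paricalcitol hearts, and the difference was -0.15 (SE 0.06, adjusted p = 0.428). The ligand Tgfb1 differed by -0.28 (SE 0.27, adjusted p = 0.816) and its target Ccn2 by -0.18 (SE 0.36, adjusted p = 0.955), while Timp1, an inhibitor of matrix proteases, differed by -0.78 (SE 0.52, adjusted p = 0.69).

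Inflammatory genes were described by 3 lists. In the list of adhesion molecules, cytokines and chemokines 22 of 31 were lower, with a median of -0.25. At an unadjusted p under 0.05, 4 were lower, against 3.91% of all genes. Icam1, which leukocytes bind on endothelium, had values of 7.09, 6.01, 5.96 and 6.48 in the combination hearts, against 6.77, 6.81, 6.87 and 8.04 in the paricalcitol hearts. Replicate 4 of the paricalcitol group was the highest. Tnfrsf1a, a receptor of tumour necrosis factor, differed by -0.43 and Il1r1, a receptor of interleukin-1, by -0.32. Il6r lay the other way, at 0.44 (SE 0.21, adjusted p = 0.551), although its partner Il6st was lower. In the MHC class II and complement list 12 of 15 were lower, 1 of them, C5ar1, at an unadjusted p under 0.05 (6.67%), against 3.91% of all genes. The median was -0.15, and it was -0.00 on the arrays numbered 1 and 4 and -0.33 on those numbered 2 and 3. Besides C5ar1, C3, the central complement protein, stood at 6.54, 5.48, 6.24 and 6.22 in the combination hearts, against 6.77, 6.35, 7.01 and 6.74 in the paricalcitol hearts, and C3ar1 differed by -0.38.

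Myeloid markers differed more among the arrays of a group than between the groups. Of 19, 16 were lower, none at an unadjusted p under 0.05, and the median of -0.12 was 0.04 on the arrays numbered 1 and 4 and -0.33 on those numbered 2 and 3. Their summed level was 6188 to 14268 intensity units in the combination hearts and 6896 to 15552 in the paricalcitol hearts, and their part in the complement and adhesion results was not tested. C5ar1, without overlap on the same arrays, differed by -0.78 and -0.73 on those 2 sets. The sets hold 2 arrays a group and were chosen after seeing the data. Whether myeloid cells took part in the C5ar1 difference was not tested. Of 22 interferon-stimulated genes 19 were higher, with a median of 0.17, which was 0.05 on the arrays numbered 1 and 4 and 0.24 on those numbered 2 and 3. Their score on replicate 1 was -0.25 in the combination group and -0.19 in the paricalcitol group. Usp18, a negative regulator of interferon signalling, was the 1 member (4.54%) at an unadjusted p under 0.05, where 5.14% of all genes were higher, averaging 8.28 ± 0.34 in the combination hearts and 7.33 ± 0.39 in the paricalcitol hearts (SD, n = 4 each). The groups did not overlap, and its difference was 0.96 (SE 0.27, adjusted p = 0.272), a 1.94-fold ratio.

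Genes of the pathway that enalapril acts on were evenly divided in direction. Of 18 measured genes of the renin-angiotensin and kinin system 9 were higher and 9 lower, with a median of 0.00. At an unadjusted p under 0.05, 2 were lower, Anpep and Mme, against 3.91% of all genes, and none was higher. Anpep, the aminopeptidase that converts angiotensin III, had values of 6.45, 6.56, 6.67 and 6.54 in the combination hearts, against 6.71, 6.95, 7.84 and 6.91 in the paricalcitol hearts, without overlap, and a difference of -0.55 (SE 0.21, adjusted p = 0.443). Mme, neprilysin, which degrades natriuretic peptides, bradykinin and angiotensins, was at or near the floor, at 4.00, 4.25, 4.42 and 4.00 against 4.45, 4.82, 4.91 and 4.30 in combination against paricalcitol hearts. Ace, the target of enalapril, averaged 7.35 ± 0.61 in the combination hearts and 7.64 ± 0.39 in the paricalcitol hearts (SD, n = 4 each), and its difference was -0.30 (SE 0.29, adjusted p = 0.822). The angiotensin receptor Agtr1a differed by -0.38 (SE 0.22, adjusted p = 0.645), the kinin receptor Bdkrb1 by 0.48 (SE 0.30, adjusted p = 0.679) and Bdkrb2 by 0.25 (SE 0.63, adjusted p = 0.973). Agt, which encodes angiotensinogen, was at the floor on 7 of the 8 arrays.

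The vitamin D list likewise had 10 members higher and 10 lower. At an unadjusted p under 0.05, 3 were lower (15%), against 3.91% of all genes, and none was higher. These 3 were Spp1, Cdkn1a and Pdia3. Vdr, the receptor of paricalcitol, averaged 5.92 ± 0.18 in the combination hearts and 5.57 ± 0.45 in the paricalcitol hearts (SD, n = 4 each), a difference of 0.34 (SE 0.21, adjusted p = 0.665). Spp1, osteopontin, a target of the receptor in bone and a marker of injured heart, had the widest difference of the list, with values of 9.51, 7.01, 7.76 and 9.12 in the combination hearts, against 9.20, 8.86, 10.53 and 10.03 in the paricalcitol hearts. The groups overlapped, the SE was large, and the difference was -1.31 (SE 0.55, adjusted p = 0.483). Cdkn1a, a cell cycle inhibitor, differed by -0.38 (SE 0.16, adjusted p = 0.469) and the protein disulphide isomerase Pdia3 by -0.19 (SE 0.08, adjusted p = 0.501).

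Sterol synthesis genes were higher in the combination hearts in part of the list. Of 19 measured 13 were higher, 4 of them at an unadjusted p under 0.05, against 5.14% of all genes, and none was lower at that level. Lss, lanosterol synthase, stood at 6.44, 6.58, 6.08 and 7.04 in the combination hearts, against 5.88, 5.97, 5.87 and 5.86 in the paricalcitol hearts. The paricalcitol hearts lay close together below every combination heart, and the difference was 0.64 (SE 0.14, adjusted p = 0.17). Pmvk, phosphomevalonate kinase, differed by 0.42 (SE 0.10, adjusted p = 0.192), and Hsd17b7, a 3-keto-sterol reductase, by 0.45 (SE 0.18, adjusted p = 0.464). Insig2, which holds the sterol-sensing machinery in the endoplasmic reticulum, did not overlap, with a difference of 0.24. The list score was 0.28, 0.06, 0.13 and 0.09 in the combination hearts, against -0.05, 0.03, 0.01 and -0.10 in the paricalcitol hearts, without overlap. Its median, 0.09, was 0.28 on the arrays numbered 1 and 4 and 0.00 on those numbered 2 and 3.

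Of the 17 subunits of the vesicular proton pump, which acidifies lysosomes and endosomes, 12 were higher, against 48.3% of all genes. In 3 of them the groups did not overlap, against 2.05% of all genes higher without overlap. Atp6v0e2, of the membrane sector, had values of 8.91, 8.72, 8.76 and 8.88 in the combination hearts, against 7.98, 8.23, 8.44 and 8.29 in the paricalcitol hearts. Its difference was 0.58 (SE 0.12, adjusted p = 0.17), a 1.5-fold ratio. Atp6v1d, of the cytosolic sector, averaged 11.83 ± 0.08 in the combination hearts and 11.62 ± 0.06 in the paricalcitol hearts (SD, n = 4 each). Atp6v1e1, of the same sector, averaged 10.58 ± 0.05 in the combination hearts and 10.34 ± 0.11 in the paricalcitol hearts (SD, n = 4 each). The median of the whole list was 0.07, and it was -0.03 on the arrays numbered 2 and 3.

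In the list of fetal and hypertrophy-associated genes 8 of 23 were higher and 15 lower, none at an unadjusted p under 0.05, with a median of -0.06. The differences ran from -0.84 for Ankrd2, a stretch-responsive ankyrin repeat protein, to 0.69 for Npr3, the clearance receptor of natriuretic peptides, with SEs of 0.62 and 0.43, both on probe sets near the floor. Tnni1, slow skeletal troponin I, lay at -0.49 (SE 0.28, adjusted p = 0.637) and Mybpc2, fast myosin binding protein C, at -0.44 (SE 0.24, adjusted p = 0.627). Nppa, which encodes atrial natriuretic peptide, averaged 14.31 ± 0.12 in the combination hearts and 14.31 ± 0.16 in the paricalcitol hearts (SD, n = 4 each), and Nppb, for brain natriuretic peptide, 13.43 ± 0.31 in the combination hearts and 13.50 ± 0.40 in the paricalcitol hearts (SD, n = 4 each). Their differences were -0.01 and -0.07, and each turned sign without some single arrays. Myh7, the fetal myosin heavy chain of rodents, differed by -0.06 (SE 0.06, adjusted p = 0.851). Myh6, the adult form, had values of 13.73, 14.02, 13.73 and 13.41 in the combination hearts, against 12.04, 13.38, 13.63 and 13.16 in the paricalcitol hearts, with replicate 1 of the paricalcitol group the lowest, and a difference of 0.67 (SE 0.48, adjusted p = 0.718). Acta1, skeletal actin, differed by 0.02 (SE 0.04, adjusted p = 0.966) and Atp2a2, the calcium pump of the sarcoplasmic reticulum, by 0.06 (SE 0.05, adjusted p = 0.817).

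In the insulin-like growth factor system 3 of 15 members were lower at an unadjusted p under 0.05, against 3.91% of all genes. Igf2, the fetal growth factor of the family, stood at 8.62, 8.67, 9.02 and 8.77 in the combination hearts, against 9.00, 9.44, 9.10 and 9.63 in the paricalcitol hearts, and its difference was -0.52 (SE 0.14, adjusted p = 0.227). The receptors Igf2r and Igf1r differed by -0.26 (SE 0.07, adjusted p = 0.272) and -0.38 (SE 0.14, adjusted p = 0.404), Igf2r without overlap. Irs2, an adaptor of the insulin receptor, lay the other way at 0.86 (SE 0.38, adjusted p = 0.506), with replicate 4 of the paricalcitol group at the level of the combination hearts. Immediate early genes were lower in 18 of 26 cases. Klf6, at -0.40 (SE 0.14, adjusted p = 0.379), was the 1 at an unadjusted p under 0.05 (3.85%), against 3.91% of all genes. The median of the list, -0.13, was -0.28 on the arrays numbered 1 and 4 and 0.04 on those numbered 2 and 3.

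Enalapril hearts were also set against vehicle hearts, without paricalcitol, on 3 and 4 arrays that share no rat with the comparison above. No pump is listed in the design for the vehicle rats, so enalapril and pump implantation cannot be told apart in this comparison either. There too 0 of 14217 genes (0%) passed adjustment, and 802 (5.64%) had an unadjusted p under 0.05, 382 (2.69%) higher and 420 (2.95%) lower. Mitochondrial ribosomal proteins had a median difference of 0.07, with 41 of 53 members higher and 12 lower, and 1 higher at an unadjusted p under 0.05. Smooth muscle and pericyte markers had a median of 0.12, on the other side of 0 from that under paricalcitol. The score of those markers in enalapril hearts rested on replicate 1, at 0.22, with the others at -0.09 and -0.06.

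The difference between the step with paricalcitol and the step without it was tested gene by gene as the interaction in the same fit. No gene passed, with 0% called and a smallest adjusted p of 0.113, and 544 genes (3.83%) had a larger and 447 (3.14%) a smaller step under paricalcitol at an unadjusted p under 0.05. Lss had the smallest adjusted p. Its step under paricalcitol was 0.64, its step without it was -0.67 (SE 0.16) and the difference of the steps was 1.31 (SE 0.21, adjusted p = 0.113). Without replicate 3 of the combination group this difference passed adjustment for Lss (limma, adjusted p = 0.00931), the 1 gene to do so there. Atp6v0e2 was alike, with a step of 0.58 under paricalcitol, -0.40 (SE 0.12) without it and a difference of 0.99 (SE 0.17, adjusted p = 0.113). Cops4, a subunit of the COP9 signalosome, was named by the same ordering, with steps of 0.10 and -0.28 (SE 0.05). On the other side, Kcnj8 had steps of -0.37 under paricalcitol and 0.23 (SE 0.10) without it, and Cct7 of -0.15 and 0.09 (SE 0.04). Of the mitochondrial ribosomal proteins 7 had a larger step under paricalcitol at an unadjusted p under 0.05, and of the smooth muscle markers 6 had a smaller one. No member of these 2 lists passed adjustment on the full set of arrays.

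**Figure D5:**
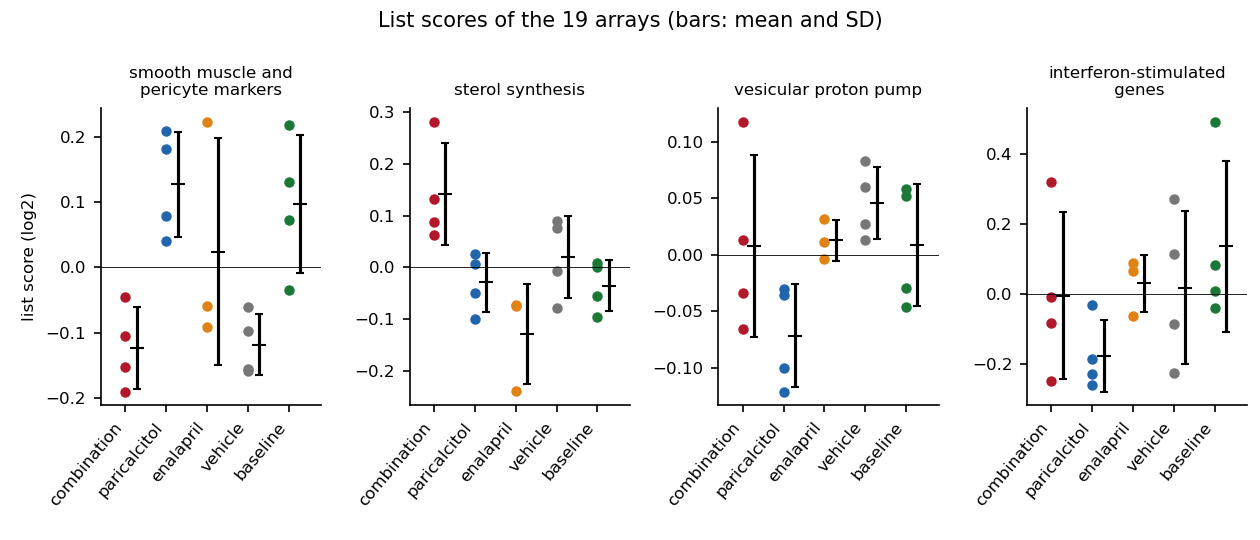
List scores of the 19 arrays by group, with mean and SD, for 4 lists. Smooth muscle and sterol synthesis scores of the combination and paricalcitol groups do not overlap, and proton pump and interferon scores do.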

How the data were processed

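Left ventricular RNA of 19 rats was hybridised to 1 Affymetrix rat array each. The authors deposited linear intensities, 1 per probe set, with 16.0% to 18.2% of the values of an array below 0 and array medians of 43.6 to 72.6; the summarising tool is not given in the sources used here. Values were quantile normalised over the 19 arrays, set to 0 where negative and taken as log2(value + 16). The 31099 probe sets included 20826 with a single gene name, and for each of the 14217 genes the brightest was kept; probe sets with several genes (436) or none (9780) and 57 controls were left out.

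Tests used limma (3.58.1, on R 4.3.3) with 1 mean per group estimated from the 19 arrays together, a variance trend and 14 residual degrees of freedom, and p-values were adjusted by Benjamini-Hochberg over all genes at 0.05. The fit was also run on simulated arrays with known shifts and independent errors, a setting without the shared deviations described next. Same-numbered combination and paricalcitol arrays deviated together (r = 0.42, 0.56, 0.34 and 0.31 over 7108 genes), and so did numbers 1 with 4 and 2 with 3. The pairing by number comes from the titles only; the replicate block was run as an alternative. Genes and lists were chosen with earlier results of these data known. Named genes were up to 12 a direction by p among genes without overlap above the median level, up to 4 of each list in the direction of its median and 2 against it, a panel of cardiac genes, and up to 2 a direction by p of the difference of the steps; the other mitochondrial ribosomal genes, Kcnj8 among the vascular genes, 4 hypertrophy genes (Ankrd2, Npr3, Tnni1 and Mybpc2) and the genes that pass under single alternatives were singled out after their values were seen. Of 1084 list symbols in 49 lists, 974 matched. Alternatives covered equalisation, pseudocounts of 4 and 64, dim genes, variance, probe sets, red cell score, the block and each array left out. Promoters are from RefSeq GRCr8.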

Additional observations from a re-analysis of the deposited data

Results flagged for a closer look

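Within groups of 4 arrays, 14 of 292 sets of values held 1 array far from the other 3, with a gap to the nearest that took more of the range than Dixon's 95% critical value allows, and chance flags about 1 set in 20. In the paricalcitol group, replicate 4 was low in Abcc9 at 10.40 and in Cdc5l at 9.87, and high in Icam1 at 8.04, where the others lay between 6.77 and 6.87, and in Irs2 at 8.75, where the others did not exceed 7.42. The glycolysis score of that array was 0.06, against -0.07 to -0.05 on the other 3. Replicate 2 of the paricalcitol group was low in Mrps12 at 9.13, with the others at 9.34 to 9.35, and high in Tomm5 at 10.37, Bdkrb1 at 4.83 and Agt at 4.03, the last 2 near the floor. Replicate 3 was high in Mrpl20 at 10.09, against 10.06 on the others. In the combination group, replicate 1 was low in Smtn at 9.67, where the others lay at 10.23 to 10.34, and replicate 2 was low in Bdkrb2 at 4.00. Replicate 1 was also high in Ankrd2 at 5.03, with the others at the floor of 4.00. The vitamin D list score of replicate 2 of the combination group was -0.21, against 0.00 to 0.01 on the others. The causes were not tested.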

How the results depend on the processing

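The count of genes past adjustment between combination and paricalcitol hearts was 0 under the other equalisations, pseudocounts, filters on dim genes, variance settings, the fit on 8 arrays and the red cell covariate, and 0 without each single array of either group. It was 1 with probe sets averaged, namely Sdc1, a cell surface proteoglycan, lower, and 6 on replicates 2 and 3 alone, a choice made after seeing the data, with 2 arrays a group. The replicate block gave 0 genes as a fixed term on the 8 arrays and 0 as a random one on all 19, and changed no call. At an unadjusted p under 0.05 the fixed term gave 749 higher and 517 lower, and the random one 962 and 761. The main fit gave 731 and 556. The smallest adjusted p (limma) was 0.24 with the fixed term and 0.0687 with the random one, against 0.17 in the main fit. In enalapril against vehicle hearts the count ran from 0 to 2 with 1 array left out, with Mov10l1 and Nell2 passing without replicate 2 of the enalapril group, Tektl1 without its replicate 1 and Kiaa0319 without replicate 1 of the paricalcitol group. In the difference of the steps it also ran from 0 to 2, with Mov10l1 and Nell2 without replicate 2 of the enalapril group and Lss without replicate 3 of the combination group. That difference gave 1 gene, Crygs, with the deposited values. The deposited values shifted the median of all genes by 0.172 in enalapril against vehicle hearts and by -0.139 in the difference of the steps, where the split at an unadjusted p was 1077 higher and 64 lower, and 103 higher and 690 lower; the equalised values gave 382 and 420, and 544 and 447. Centred on array medians it was 264 and 498, and 831 and 254. Only 1 array a rat and 3 to 4 rats a group, and signals near background for dim genes, limit the precision. Of 2831 recomputed differences of 119 genes, 44 turned sign, the cause not tested. Probe sets pointed both ways in 13 of these genes, of which 44 had several. With the deposited values, the turned values were -0.026 for Acta1, 0.017 for Mrpl14 and 0.060 for Mrpl23. Centred on array medians, where the median of all genes was 0.035, the turned values were 0.028 for Agt, 0.045 for Mrpl14 and 0.088 for Mrpl23. After cyclic loess, the turned values were -0.077 for Acta1 and -0.023 for Atp2a2. With probe sets averaged, the turned values were -0.12 for Atp2a2, -0.23 for Bdkrb2 and 0.14 for Kdm5b. With array weights, the turned values were 0.018 for Mrpl23. On replicates 1 and 4, the turned values were 0.035 for C3ar1, 0.18 for Col1a1, 0.12 for Mrpl14 and 0.036 for Mybpc2. On replicates 2 and 3, the turned values were -0.013 for Acta1, -0.49 for Bdkrb2, -0.21 for Col3a1, 0.015 for Mrpl23, 0.006 for Nppa and -0.093 for Npr3. With 1 array left out at a time, the difference ran from -0.013 to 0.035 for Acta1, from -0.11 to 0.77 for Bdkrb2, from -0.43 to 0.15 for Ccn2, from -0.11 to 0.32 for Col3a1, from -0.078 to 0.045 for Mrpl14, from -0.073 to 0.033 for Mrpl23, from -0.080 to 0.047 for Nppa, from -0.23 to 0.081 for Nppb and from -1.52 to 0.11 for Postn.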
